A study of Mus musculus with 93 samples.

Results

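Myc, its relative Mycn and 7 genes whose proteins pair within the same network (Max, Mxd1, Mxd4, Mxi1, Mnt, Mlx and Mga) were examined in mouse blood leukocytes. The 9 genes were chosen by symbol and together have 23 probe sets among the 45037 tested; each gene was read by its brightest probe set (by the mean of the 93 arrays), and its other probe sets stand beside it. Blood came from the cheek of female mice kept in continuous breeding, red cells were lysed, and RNA from the white cells was amplified and hybridized to Affymetrix mouse genome arrays. The 28 control arrays came from wild type FVB/NJ mice without tumors, matched for age and parity. The 65 tumor arrays came from FVB/NJ mice with advanced mammary tumors that carry MMTV/c-MYC, a transgene in which the hormone-responsive long terminal repeat of mouse mammary tumor virus drives either Myc or a stabilized mutant of it, chiefly in mammary epithelium. Per the study several transgenic lines were used, and the labels do not tie lines to arrays. They place 14 control and 32 tumor arrays in a training cohort and 14 control and 33 tumor arrays in a validation cohort.

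Tumor arrays were read as 2 sets by the number in their label: an early-numbered set of 13 (training numbers 1 to 5, validation numbers 1 to 8) and a late-numbered set of 52 (training numbers 6 to 32, validation numbers 9 to 33). The labels give no reason for this division, but it coincides with a technical one. The poly-A spike-in dap stood at 6.47 or above on the log2 scale on all 52 late-numbered arrays and at 4.58 or below on all other arrays. The 5′ minus 3′ difference of the actin control, a sign of how much of the 5′ end was copied, averaged −0.643 ± 0.103 (SD) in control, −0.539 ± 0.282 in late-numbered and −1.42 ± 0.227 in early-numbered arrays. The same difference of Gapdh averaged −1.18 ± 0.134, −1.32 ± 0.454 and −1.38 ± 0.339. Tumor, number and these technical measures therefore cannot be told apart within a set. Among leukocyte marker lists, the mean level of the B cell list was 9.64 in control, 8.67 in late-numbered and 8.69 in early-numbered arrays, and that of the T cell list 10.5, 10.1 and 9.65. The neutrophil list stood at 11.5, 12.1 and 11.3 and the platelet list at 12.3, 12.4 and 12.1, whereas the mammary epithelium list stood at 3.86, 4.04 and 4.05, below the median of 4.79 over all probe sets. In such bulk samples fewer cells of a type and less RNA per cell cannot be told apart.

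Myc is a basic helix-loop-helix leucine zipper transcription factor that binds DNA only as a dimer with Max. Mycn is a close relative used mainly in developing tissues. Mxd1, Mxd4, Mxi1 and Mnt also dimerize with Max and recruit Sin3 corepressors to the same sites, Mga dimerizes with Max within a Polycomb-type complex, and Mlx is a Max-like partner that pairs with Mondo proteins and with some Mxd proteins and Mnt. In blood cells, Myc is known for driving growth and division of activated lymphocytes and progenitors, and Mxd1 for rising as granulocytes mature. In the RefSeq annotation of GRCm38.p6 the gene Myc lies at chr15:61985341-61990361, Mycn at chr12:12936093-12941836, Max at chr12:76937269-76962323, Mxd1 at chr6:86647044-86669234, Mxd4 at chr5:34176580-34187710, Mxi1 at chr19:53310128-53373293, Mnt at chr11:74830806-74845725, Mlx at chr11:101086707-101092207 and Mga at chr2:119872503-119970129.

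The element the network reads is the E-box CACGTG, which reads the same on both strands. It was sought in RefSeq promoter windows of 300 bases (250 before to 50 after the start of a transcript), which matched 8 of the 9 genes, all but Myc. The E-box occurred in the window of Mxd4, Mnt, Mlx and Max and not in those of Mga, Mxd1, Mycn or the 3 windows of Mxi1. Among all windows of this length 7.15% held it, 8.09% of genes had it in at least 1 window, and 12.1% of genes brighter than the median probe set, as these 9 genes were, did. The matches are shown because these 4 genes carry in their own promoter window the letters that the network binds; a match is a description and not a measured site. The E-box is in capitals, and each stretch of 30 bases runs 5′ to 3′ on the strand of the gene.
Mxd4, minus strand, chr5:34187912-34187941: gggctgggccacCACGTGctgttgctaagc
Mnt, plus strand, chr11:74830789-74830818: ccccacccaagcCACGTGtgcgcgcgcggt
Mlx, plus strand, chr11:101087238-101087267: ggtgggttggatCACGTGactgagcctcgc
Max, minus strand, chr12:76962234-76962263: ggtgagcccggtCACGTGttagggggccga
Its first base lies at −219 from the start in Mxd4, −123 in Mnt, −40 in Mlx and −3 in Max.

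Against control arrays, 5 of the 9 genes passed the test in late-numbered arrays, with Myc, Mxd4 and Mycn higher and Mga and Mxi1 lower. Over all probe sets 43.8% passed in this comparison (limma, adjusted p under 0.05 after Benjamini-Hochberg adjustment over all 45037), of which 23.9% were higher and 19.9% lower. In early-numbered arrays 6 of the 9 passed, with Mga, Mxi1 and Mnt higher and Myc, Mxd4 and Mlx lower, against 62.6% of all probe sets (37.9% higher and 24.6% lower). Both counts are near these backgrounds. Myc, Mxd4, Mxi1 and Mga thus passed in opposite directions in the 2 sets. The share of all probe sets that did so was not counted, so these genes cannot be set against a background here. Between the sets themselves 6 genes passed (68.0% of all probe sets, 27% higher and 41.0% lower): Myc, Mxd4 and Mlx were higher in late-numbered arrays, and Mga, Mxi1 and Max lower. With each array centred on its median 4 were higher and 2 lower in early-numbered arrays than in controls, and 3 higher and 5 lower between the sets; with arrays quantile-normalized again 2 were higher and 4 lower between the sets. The control arrays are shared by both comparisons with control. When all 65 tumor arrays were compared with the controls as the labels give them, 0 of the 9 genes passed the limma test (41.7% of all probe sets did) and 2 had an unadjusted p under 0.05.

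**Figure D1:**
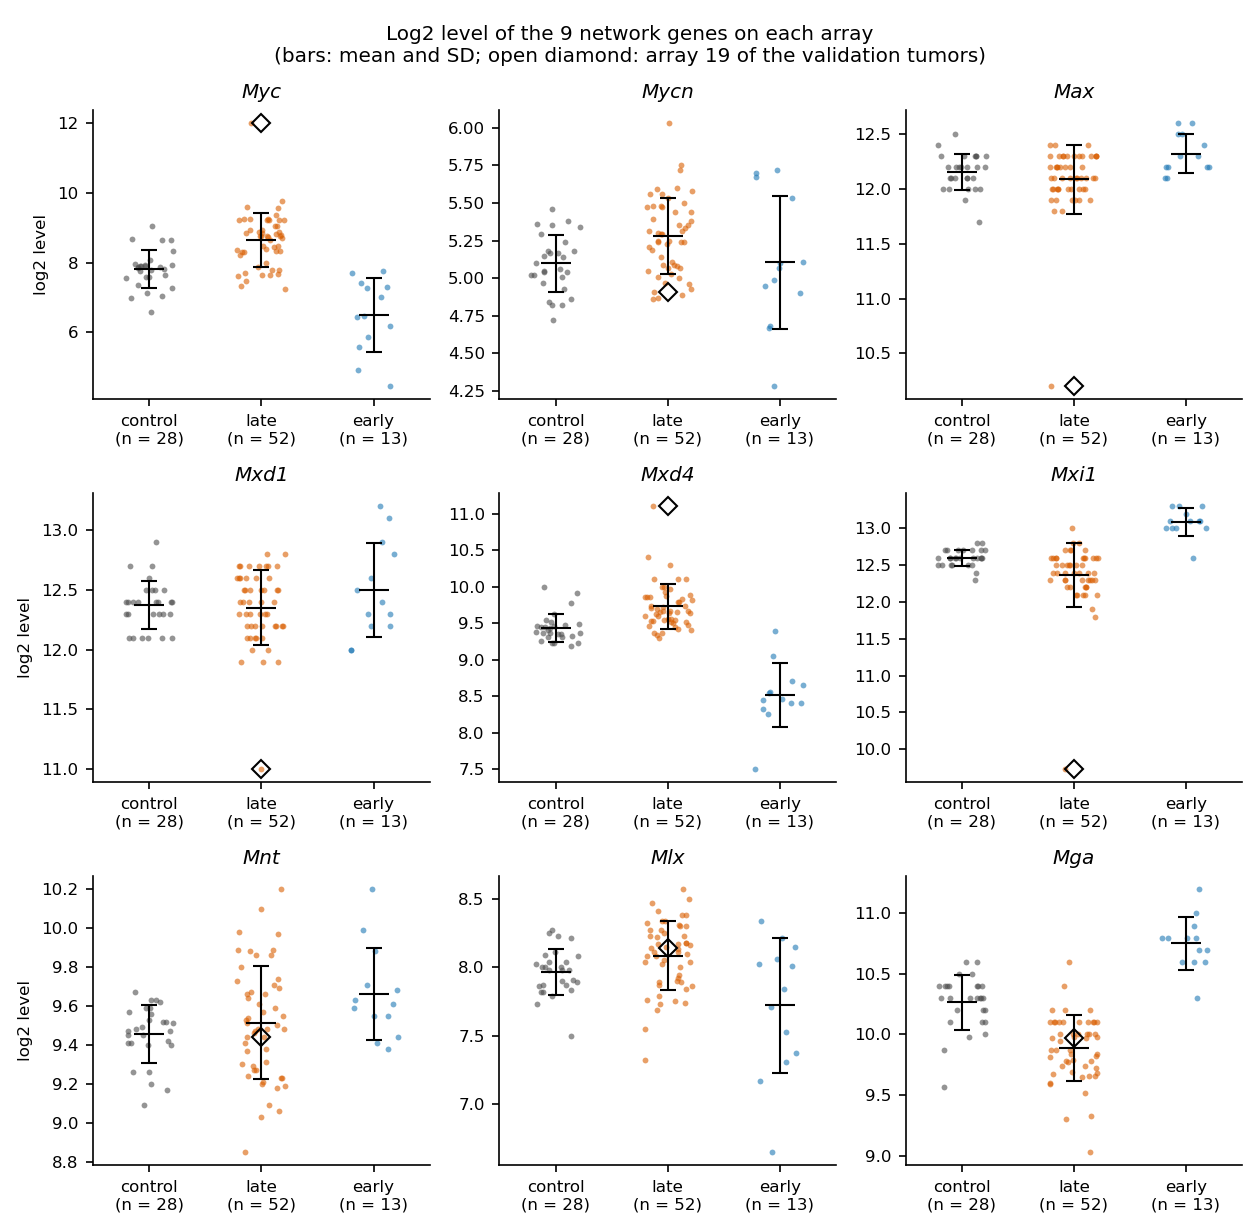
Log2 level of each of the 9 genes (vertical axis, a scale of its own in each panel) on the 28 control, 52 late-numbered and 13 early-numbered tumor arrays, 1 point per array, with the mean and SD of each set. Myc was above the control mean on 42 of 52 late-numbered arrays and below it on 13 of 13 early-numbered arrays, and array 19 of the validation tumors (open diamond, drawn again at the centre of its column) stood at 12.0 for Myc and lowest of its set for Max, Mxd1 and Mxi1.

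Myc is read by a single probe set. Its log2 level lay between 6.59 and 9.06 in control (median 7.86), between 7.25 and 12.0 in late-numbered (median 8.76) and between 4.46 and 7.76 in early-numbered arrays (median 6.47). The order was thus early-numbered, control, late-numbered, and each step was larger than the spread within the sets although the ranges overlapped: 13 of the 52 late-numbered arrays lay above the highest control and 7 of the 13 early-numbered arrays below the lowest. Myc was 0.84 ± 0.176 (SE) higher in late-numbered arrays than in controls, a fold of 1.79 (adjusted p = 3.49e-05 by limma), and 1.31 on the same scale, a fold of 2.48, lower in early-numbered arrays (difference −1.31 ± 0.253, adjusted p = 5.92e-06). Within the cohorts the difference of late-numbered arrays was 0.63 (adjusted p = 0.00508) in training and 1.05 (adjusted p = 0.00417) in validation arrays, and that of early-numbered arrays −1.26 and −1.30. With the B cell, T cell and neutrophil marker levels as covariates, the difference of early-numbered arrays was −0.34 (adjusted p = 0.366 by limma) and that of late-numbered arrays 1.20 (adjusted p = 3.32e-08). With the numbers in the labels as a replicate block the difference of late-numbered arrays was 0.62 (adjusted p = 0.063 by limma). Numbers above 14 occur only among late-numbered arrays, so under the block those arrays are not compared directly with controls. With 3 principal components of the control probe sets the difference of early-numbered arrays was −1.12 (adjusted p = 0.0623 by limma). Whether this probe set also reads the transgene was not tested. By quantitative RT-PCR the study found little to no c-MYC transcript in blood cells of the transgenic mice, relative to mammary tumors. Its array comparison of Myc probe sets, this one among them, found no significant difference among its mouse classes. Those classes did not divide tumor arrays by number. With all tumor arrays together Myc was 0.41 higher than in controls here (adjusted p = 0.147 by limma).

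Mycn was dim on these arrays. Its brightest probe set averaged 5.10 ± 0.191 (SD) in control, 5.28 ± 0.253 in late-numbered and 5.11 ± 0.444 in early-numbered arrays, near the median of all probe sets. It was 0.18 ± 0.0660 (SE) higher in late-numbered arrays (adjusted p = 0.0174 by limma), and 14 of 52 of these arrays lay above the highest control. This call was lost in the training (adjusted p = 0.17) and validation (adjusted p = 0.141) cohorts alone, with the marker levels as covariates (adjusted p = 0.146) and with the replicate block (adjusted p = 0.42), and the difference turned to −0.045 with the principal components. Its other probe sets stood at 3.14 and 2.62 in controls, were not called in late-numbered arrays and were called higher in early-numbered ones, by 0.37 and 0.32. In late-numbered arrays Mycn rose with the mean level of the mammary epithelium marker list (rho 0.573, r 0.397, adjusted permutation p = 3.74e-04 and 0.0215, n = 52), a list that was itself dim there. This was not particular to Mycn. By rho, Max (0.496) and Mxi1 (0.487) rose with the list there too, while Mlx (−0.419), Mxd1 (−0.380) and Mnt (−0.370) fell. Each had an adjusted permutation p under 0.05.

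Max, the shared dimer partner, stayed within a narrow range. It lay between 11.7 and 12.5 in control (median 12.2), between 10.2 and 12.4 in late-numbered (median 12.1) and between 12.1 and 12.6 in early-numbered arrays (median 12.3). Values from 10 on move in steps of 0.1, which is not small beside this range. Neither set passed the test against controls (−0.07 ± 0.0604, adjusted p = 0.40, and 0.18 ± 0.0867, adjusted p = 0.0681), while the sets differed from each other by 0.24 (adjusted p = 0.00567 by limma, lower in late-numbered arrays). Without array 19 of the validation tumors the SE in early-numbered arrays was 0.0572 and the difference of 0.17 passed (adjusted p = 0.00677 by limma). With the principal components Max was −0.61 ± 0.141 apart from control in late-numbered arrays (adjusted p = 7.07e-04 by limma). The control probe sets behind them include dap, which separated all late-numbered arrays from controls, so the components may carry part of the set difference.

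Mlx, the Max-like partner, averaged 7.97 ± 0.170 (SD) in control, 8.09 ± 0.254 in late-numbered and 7.72 ± 0.491 in early-numbered arrays. It was 0.25 lower in early-numbered arrays (−0.25 ± 0.0966, adjusted p = 0.0185 by limma), where 4 of 13 arrays lay below the lowest control, and 0.12 ± 0.0673 apart from control in late-numbered arrays (adjusted p = 0.146). With the arrays quantile-normalized again, the difference of early-numbered arrays was −0.07 (adjusted p = 0.502), and the call was also lost in each cohort alone (adjusted p = 0.123 and 0.139). A second, dimmer Mlx probe set moved further in both sets, by 0.72 (adjusted p = 1.61e-08) and −0.67 (adjusted p = 1.17e-04).

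Among the Max-binding repressors, Mxd4 moved the same way as Myc. Its level lay between 9.18 and 10.0 in control (median 9.39), between 9.29 and 11.1 in late-numbered (median 9.66) and between 7.50 and 9.39 in early-numbered arrays (median 8.46). It was above the control mean on 46 of 52 late-numbered arrays and below the lowest control on 12 of 13 early-numbered arrays. The differences from control were 0.29 ± 0.0719 (adjusted p = 3.78e-04) and −0.92 ± 0.103 (adjusted p = 1.12e-12 by limma). The former was 0.12 (adjusted p = 0.438) with the replicate block and 0.43 (adjusted p = 0.0971) with the principal components. Of its 3 other probe sets, 2 moved in these directions as well, and at one of them 43 of 52 late-numbered arrays were above the highest control.

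Mxi1 and Mga moved opposite to Myc when read by their brightest probe sets. Mxi1, a repressor of the Mxd group, lay between 12.3 and 12.8 in control (median 12.6), between 9.73 and 13 in late-numbered (median 12.4) and between 12.6 and 13.3 in early-numbered arrays (median 13.1), where 12 of 13 lay above the highest control. It differed from control by −0.24 ± 0.0791 (adjusted p = 0.0104) in late-numbered arrays and by 0.49 ± 0.113 (adjusted p = 1.16e-04 by limma) in early-numbered ones. The former was −0.29 (adjusted p = 0.127) in the validation cohort alone and −0.09 (adjusted p = 0.498) with the marker levels as covariates, and the latter 0.39 (adjusted p = 0.123) with the principal components. Mga, the large scaffold with a second DNA-binding domain, lay between 9.57 and 10.6 in control (median 10.3), between 9.03 and 10.6 in late-numbered (median 9.91) and between 10.3 and 11.2 in early-numbered arrays (median 10.8). It lay below the control mean on 50 of 52 late-numbered arrays and above it on 13 of 13 early-numbered arrays. Its differences from control were −0.38 ± 0.0596 (adjusted p = 5.18e-08) and 0.50 ± 0.0856 (adjusted p = 5.27e-07 by limma). With the principal components the former turned to 0.31 (adjusted p = 0.0674), and with the actin difference as a covariate the latter was 0.22 (adjusted p = 0.115).

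Mxd1, the repressor associated with granulocyte maturation, and Mnt, the widely expressed member of the group, moved less than the other Max-binding repressors when read by their brightest probe sets. Mxd1 averaged 12.4 ± 0.201 (SD) in control, 12.4 ± 0.313 in late-numbered and 12.5 ± 0.396 in early-numbered arrays, with differences of −0.03 (adjusted p = 0.796) and 0.13 (adjusted p = 0.241). Mnt averaged 9.46 ± 0.147 in control, 9.51 ± 0.290 in late-numbered and 9.66 ± 0.237 in early-numbered arrays. It was 0.21 ± 0.0863 higher in early-numbered arrays (adjusted p = 0.0313 by limma) and 0.06 ± 0.0602 apart from control in late-numbered arrays (adjusted p = 0.475). The call in early-numbered arrays was lost in the training (0.17, adjusted p = 0.356) and validation (0.23, adjusted p = 0.0645) cohorts alone, and with the actin difference as a covariate the value was 0.03 (adjusted p = 0.861).

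Probe sets of 1 gene did not always move together, so that for Mxi1, Mga and Mxd1 the direction rests on the probe set read. The second probe set of Mxi1 averaged 8.81 in control, 9.13 in late-numbered and 8.01 in early-numbered arrays, 0.79 lower in the early-numbered ones (−0.79 ± 0.234, adjusted p = 0.00252), opposite to the brightest. Of the 5 probe sets of Mga, a dimmer one averaged 5.20, 5.69 and 4.23 and ran opposite to the brightest in both sets (0.49 and −0.97, adjusted p = 1.02e-05 and 4.32e-09). The dimmest probe set of Mxd1 averaged 5.56 ± 0.451 (SD) in control, 6.83 ± 0.490 in late-numbered and 6.23 ± 0.801 in early-numbered arrays. There Mxd1 was 1.28 ± 0.123 (SE) higher in late-numbered arrays (adjusted p = 1.18e-15 by limma), and 45 of 52 of them lay above the highest control, whereas its brighter probe sets were not called in these arrays. In early-numbered arrays the second brightest probe set of Mxd1 was lower (−0.24 ± 0.103, adjusted p = 0.0332), opposite in sign to the brightest. With the mean of all probe sets of a gene, Mxd1 differed by 0.44 in late-numbered arrays (adjusted p = 2.91e-06), Mxi1 by 0.04 and Mga by 0.03. Probe set positions within the transcripts were not used here, and the part of the 5′ to 3′ measure in these disagreements was not tested.

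**Figure D2:**
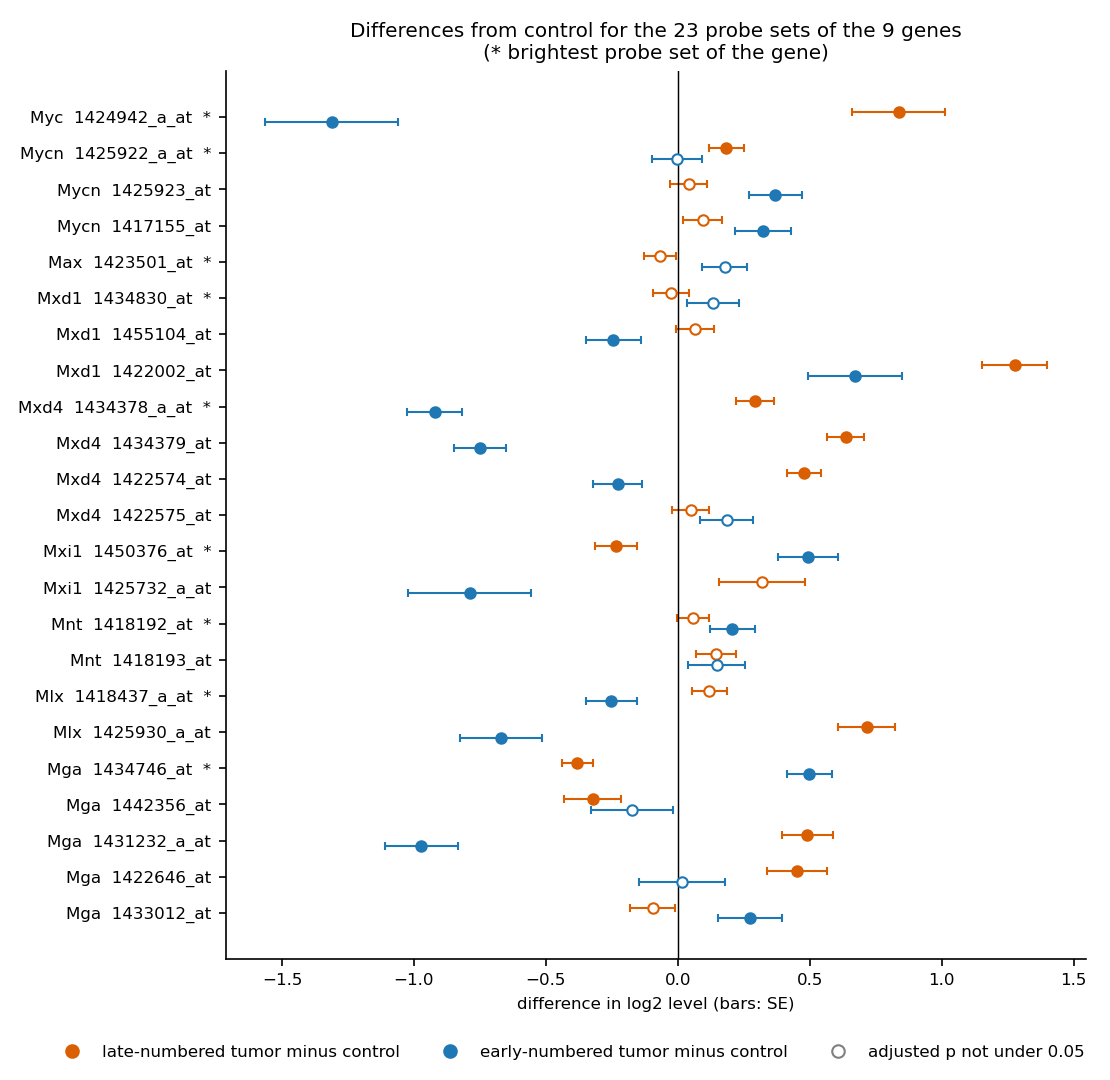
Difference in log2 level from the control arrays (horizontal axis, with SE) for each of the 23 probe sets, in late-numbered (orange) and early-numbered (blue) tumor arrays; filled points have an adjusted p under 0.05 and the brightest probe set of each gene has a star. The brightest probe sets of Myc and Mxd4 lie to the right in late-numbered and to the left in early-numbered arrays, and those of Mxi1 and Mga the reverse. Another probe set of Mxi1 and another of Mga lie on the opposite side of 0 from the brightest in both sets.

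Array 19 of the validation tumors stood apart for the network. On it Myc was at 12.0, where the next highest late-numbered array was at 9.77, and Mxd4 was at 11.1, the highest of the 52. Max at 10.2, Mxd1 at 11 and Mxi1 at 9.73 were each the lowest of the 52, while Mnt (9.44), Mlx (8.14) and Mga (9.97) lay within the range of the others. On the same array the mean levels of the T cell (11.7), NK cell (10.3) and proliferation (8.47) lists were the highest of the 52, and those of the platelet (8.15), monocyte (7.70), B cell (6.49) and erythroid (6.98) lists the lowest. Their part in the values of the network genes was not tested. Without this array Myc was 0.77 higher in late-numbered arrays (adjusted p = 1.85e-05 by limma) and the same number of genes, 5, passed against control.

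Whether partners follow Myc from array to array was asked within each set, by the slope of the partner on Myc (log2 per log2, limma with cohort as covariate) and by Pearson r and Spearman rho with permutation p, over 8 partners in 3 sets (24 relations). In late-numbered arrays 4 of 8 slopes passed: Mxd4 rose with Myc (0.22 ± 0.0476, adjusted p = 5.36e-04), and Max (−0.17 ± 0.0493, adjusted p = 0.00970), Mxd1 (−0.16 ± 0.0489, adjusted p = 0.0151) and Mxi1 (−0.25 ± 0.0685, adjusted p = 0.00498) fell. Of all probe sets 23.2% passed, 14.2% with a positive and 8.98% with a negative slope. Without array 19 of the validation tumors 0 of 8 slopes passed the limma test (2 at an unadjusted p under 0.05; 4.25% of all probe sets passed). The slope was then 0.11 for Mxd4, 0.05 for Max, 0.04 for Mxi1 and −0.03 for Mxd1, so the negative slopes of Max and Mxi1 rest on that array.

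Rank correlations weigh a single far array less. For Mxd4 r was 0.560 (permutation p = 2.1e-04, n = 52) and rho 0.282 (permutation p = 0.0435), and without the 2 arrays farthest from the median Myc level r was 0.348. It was −0.02 in the training and 0.751 in the validation arrays, so it did not hold within both cohorts. For Max r was −0.436 (permutation p = 0.0170) and rho 0.110 (permutation p = 0.439), and r without the 2 farthest arrays was 0.164. For Mxi1 r was −0.456 (permutation p = 0.0151), rho 0.070 (permutation p = 0.621) and r without the 2 farthest arrays 0.123. By brightest probe sets, Mlx alone among the 8 partners had a negative rho with a permutation p under 0.05 here. Its rho was −0.332 and its r −0.153 (p = 0.0167 and 0.279, both by permutation). Other probe sets of Mxd1 had rho −0.301 and −0.3665 and that of Mlx −0.199, each without a permutation test.

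In control arrays 0 of 8 slopes passed the limma test, and 3 had an unadjusted p under 0.05. Of all probe sets 7.06% passed, 5.89% with a positive and 1.17% with a negative slope. By brightest probe sets, Mxi1, Max, Mxd4 and Mxd1 tended to be lower where Myc was higher. For Mxi1 r was −0.415 and rho −0.447 (permutation p = 0.0287 and 0.0184, n = 28; adjusted p of the slope 0.169), and r was −0.763 without the 2 farthest arrays. For Max r was −0.387 and rho −0.436 (permutation p = 0.0425 and 0.0215; adjusted p of the slope 0.196), and r was −0.593 without the 2 farthest. Within the cohorts r was −0.258 in training and −0.671 in validation arrays for Mxi1, and −0.259 and −0.579 for Max. For Mxd4, whose slope in late-numbered arrays was positive, r was −0.384 and rho −0.249 (permutation p = 0.0437 and 0.20; adjusted p of the slope 0.170), and r was −0.201 without the 2 farthest arrays. In early-numbered arrays 0 of 8 slopes passed, as did 0 of all probe sets (1 of 8 at an unadjusted p under 0.05). That 1 was Mga, with r 0.788 and rho 0.783 (permutation p = 9.1e-04 and 0.0020, n = 13; adjusted p of the slope 0.268) and r 0.729 without the 2 farthest arrays. It was 0.793 over the 8 validation arrays, and the 5 training arrays were too few for a value. The other probe sets of Mga had r −0.187, 0.0202, −0.0425 and −0.509 in early-numbered arrays. The second probe set of Mlx had r 0.784 there (adjusted p of the slope 0.171 by limma).

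Slopes were compared between sets by an interaction term. Between late-numbered and control arrays 0 of 8 partners differed (0.244% of all probe sets did), the closest being Mxd4 with a slope difference of 0.35 ± 0.0970 (adjusted p = 0.0839 by limma, the 1 of 8 with an unadjusted p under 0.05). Between late-numbered and early-numbered arrays 1 of 8 differed (10.8% of all probe sets), namely Mlx.

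**Figure D3:**
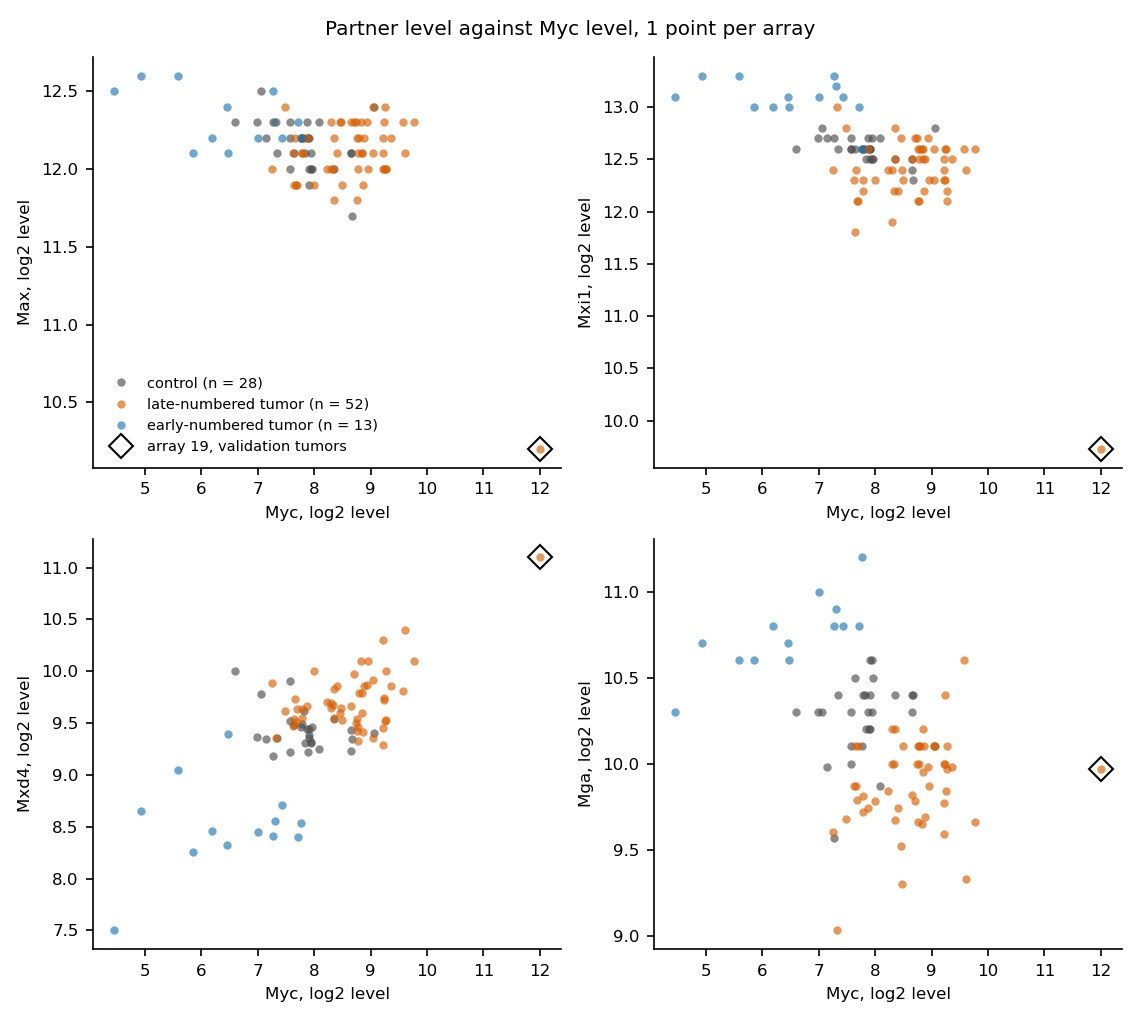
Log2 level of Max, Mxi1, Mxd4 and Mga (vertical axes) against that of Myc (horizontal axis), 1 point per array, coloured by set. Array 19 of the validation tumors (open diamond) lies alone at a Myc level of 12.0, with Max at 10.2, Mxi1 at 9.73 and Mxd4 at 11.1, while the other late-numbered arrays lie at a Myc level of 9.77 or below.

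The levels of the network genes followed those of marker lists of different cell types across arrays. The mean level of each of 9 marker lists was related to each of the 9 genes in each set, 243 relations in all with Benjamini-Hochberg adjustment over them; all points of a relation share the array on which both values were read. Max followed the platelet list: rho was 0.857 in control (n = 28, adjusted permutation p = 2.43e-04), 0.710 in late-numbered (n = 52, adjusted permutation p = 2.43e-04) and 0.595 in early-numbered arrays (n = 13, adjusted permutation p = 0.101). Pearson r was 0.890 and 0.917 in the control and late-numbered sets, and 0.814 and 0.687 without the 2 arrays farthest from the median of the platelet list. The relation held within both cohorts, with rho 0.701 and 0.833 in control and 0.678 and 0.732 in late-numbered training and validation arrays.

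Mxi1 followed the platelet list as well, with rho 0.770 in control, 0.632 in late-numbered and 0.780 in early-numbered arrays (adjusted permutation p = 3.74e-04, 2.43e-04 and 0.0140). In late-numbered arrays it also rose with the erythroid list (rho 0.668, r 0.621, adjusted permutation p = 2.43e-04 for both). Mga ran against the platelet list, with rho −0.645 in control and −0.627 in late-numbered arrays (adjusted permutation p = 0.00297 and 2.43e-04), though r was −0.269 in the latter (adjusted permutation p = 0.158). The adjusted p of 2.43e-04 is the smallest reached among these relations, from the smallest p that 100000 permutations can give.

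Mxd1 followed the neutrophil list. Its rho was 0.501 in control (adjusted permutation p = 0.0311), 0.747 in late-numbered (adjusted permutation p = 2.43e-04) and 0.932 in early-numbered arrays (adjusted permutation p = 8.95e-04), and in late-numbered arrays it was 0.826 in the training and 0.738 in the validation cohort. Mxd1 also rose with the monocyte list in control (rho 0.584, adjusted permutation p = 0.00899) and late-numbered arrays (rho 0.488, adjusted permutation p = 0.00308). Mnt (rho 0.675) and Mlx (rho 0.611) rose with the neutrophil list in late-numbered arrays too (adjusted permutation p = 2.43e-04 for both), and Mlx with the monocyte list in control (rho 0.585, adjusted permutation p = 0.00755) and late-numbered arrays (rho 0.683, adjusted permutation p = 2.43e-04).

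Myc itself followed the T cell list. The rank correlation was 0.572 in control and 0.456 in late-numbered arrays (adjusted permutation p = 0.0105 and 0.0050), r was 0.598 and 0.587, and r without the 2 farthest arrays was 0.463 and 0.418. In late-numbered arrays Myc also rose with the NK cell list (rho 0.452, adjusted permutation p = 0.00648) and fell with the monocyte list (rho −0.483, adjusted permutation p = 0.00302). These relations were weaker in the training than in the validation arrays, with rho 0.227 and 0.656 for the T cell, 0.217 and 0.557 for the NK cell and −0.264 and −0.672 for the monocyte list. With the proliferation list r was 0.483 (adjusted permutation p = 0.0215) but rho 0.205 (adjusted permutation p = 0.278). No relation of Myc with the mammary epithelium list passed the test in any of the 3 sets.

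**Figure D4:**
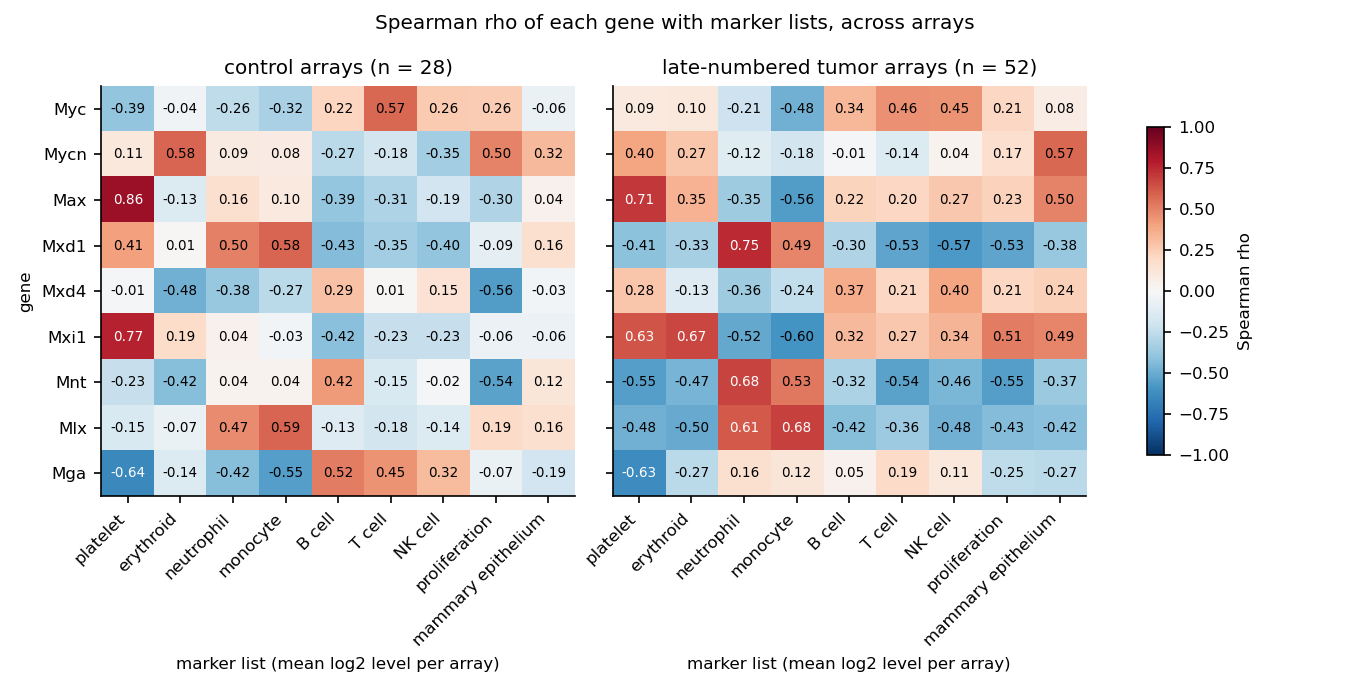
Spearman rho, across control arrays (left) and late-numbered tumor arrays (right), between the log2 level of each of the 9 genes (rows) and the mean log2 level of each marker list (columns), from blue (negative) to red (positive). Max and Mxi1 are most positive with the platelet list in control arrays (0.86 and 0.77), Mxd1 with the neutrophil list in late-numbered arrays (0.75) and Myc with the T cell list in control arrays (0.57).

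Other genes of the pathway were taken from lists by known role. Of 9 coactivators of Myc, 5 were higher and 1 lower in late-numbered arrays than in controls, 0 higher and 7 lower in early-numbered arrays. These and the following counts stand beside 23.9% of all probe sets higher and 19.9% lower in late-numbered, and 37.9% higher and 24.6% lower in early-numbered arrays. Trrap, the scaffold that Myc recruits to chromatin, was 0.62 ± 0.0652 higher in late-numbered arrays and 1.04 on the log2 scale lower in early-numbered arrays (−1.04 ± 0.0936), the acetyltransferases Kat5 (0.71 and −0.99) and Kat2a (0.32 and −1.47) and the helicase Ruvbl2 (0.60 and −1.14) likewise, all passing the test in both. The median difference of this list was 0.20 and −0.95, where that of all probe sets was 0.04 and 0.12. Of 7 corepressors of the Mxd group, 4 were higher and 2 lower in late-numbered arrays, and 1 higher and 4 lower in early-numbered arrays, where 43.8% and 62.6% of all probe sets passed. Among them Sin3b (0.66 and −0.82) and Sin3a (0.45 and −0.60), the scaffolds bound by Mxd proteins, moved the same way as Myc, and the histone chaperone Rbbp4 (−0.26 and 0.42) the opposite way, while Sap30, a Sin3 subunit, was 0.79 higher in late-numbered arrays and did not pass in early-numbered ones (0.20, adjusted p = 0.247 by limma).

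Of the 4 remaining network genes, Mxd3, a repressor of the Mxd group tied to dividing cells, was higher in both sets (0.35 and 0.41). Mycl, a Myc relative, was higher in late-numbered arrays (0.37, adjusted p = 0.0269). The Mondo proteins that pair with Mlx were split: Mlxip was lower in late-numbered arrays (−0.33, adjusted p = 8.42e-06) and Mlxipl higher in early-numbered ones (1.06, adjusted p = 2.24e-06). Of 12 genes of Myc turnover and modification, 3 were higher and 3 lower in late-numbered arrays, and 3 higher and 5 lower in early-numbered arrays, near the 43.8% and 62.6% of all probe sets that passed. Fbxw7, which marks Myc for degradation, was lower in late-numbered arrays (−0.47, adjusted p = 3.34e-09); Cip2a, which protects Myc from dephosphorylation, was lower in late-numbered (−0.56) and higher in early-numbered arrays (0.82). The ubiquitin ligase Stub1 was lower in early-numbered arrays (−1.02), as was the phosphatase subunit Ppp2r5a (−0.39). Of 9 genes whose proteins repress with Myc or bind the same kind of box, 5 were higher and 3 lower in late-numbered arrays, and 2 higher and 5 lower in early-numbered arrays, where 43.8% and 62.6% of all probe sets passed. Usf1, which binds the E-box itself, was higher in late-numbered (0.90) and lower in early-numbered arrays (−0.58), and Arntl, the clock factor, was lower in both (−0.41 and −1.45). Tfap4 was lower in late-numbered arrays (−0.85) and Bin1, a Myc-interacting adaptor, in early-numbered ones (−1.35).

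Known targets of Myc moved in both directions between the sets. Of 27 targets that Myc is known to raise, 4 were higher and 12 lower in late-numbered arrays, where Myc was higher, with a median difference of −0.10 (23.9% of all probe sets were higher and 19.9% lower). In early-numbered arrays, where Myc was lower, 3 were higher and 18 lower, with a median of −0.58 (37.9% of all probe sets higher and 24.6% lower). Between the sets 14 were higher and 7 lower in late-numbered arrays, with a median of 0.32 (27% of all probe sets higher and 41.0% lower). Ldha, a glycolytic enzyme, was 0.77 higher in late-numbered and 0.41 on the log2 scale lower in early-numbered arrays (−0.41), whereas the ribosome biogenesis factor Pa2g4 (−0.95) and the cap-binding Eif4e (−0.64) were lower in late-numbered arrays and Eif4e was higher in early-numbered ones (0.44). The helicase Eif4a1 was lower in early-numbered arrays (−1.71) and at −0.05 in late-numbered ones (adjusted p = 0.649 by limma). Of 6 targets that Myc is known to lower, 3 were higher and 1 lower in late-numbered arrays, and 0 higher and 1 lower in early-numbered arrays. The cell cycle inhibitors Cdkn1a (0.58), Cdkn1b (0.56) and Cdkn2b (0.54) were the higher ones, and Ndrg1 was lower in both sets (−0.61 and −0.33).

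Across arrays of the same set, some raised targets rose with Myc. In control arrays the slope on Myc was positive for 24 of the 27 raised targets and passed the test for 11 of them, with 0 negative calls; their median slope was 0.25, where 5.89% of all probe sets were called positive. In late-numbered arrays 18 were called positive and 1 (Tert, the telomerase reverse transcriptase) negative, with a median slope of 0.31 and 14.2% of all probe sets called positive. Without array 19 of the validation tumors 1425 of all 45036 probe sets were called positive and 488 negative. Of the 27 raised targets 6 were then called positive and 0 negative, with a median slope of 0.19, and 22 of 27 slopes were positive. Those 6 were Cad, which starts pyrimidine synthesis (0.32), the serine hydroxymethyltransferase Shmt2 (0.36), the nucleolar proteins Nop56 (0.35), Gnl3 (0.28) and Ncl (0.18), and the chaperone Hspd1 (0.26). Of the 6 lowered targets, 0 were called positive in either set. In control arrays 2 were called negative (Cdkn1b and Ndrg1), where 1.17% of all probe sets were. In late-numbered arrays 3 were called negative (Cdkn1a, Gadd45a and Cebpa), where 8.98% of all probe sets were. Without array 19 those called negative were Cdkn1a and Gadd45a. In early-numbered arrays 0 targets were called, as were 0 of all probe sets. Points of a slope share the array, and the levels of some marker lists on it move with Myc as given above. The part of these marker levels in the slopes was not tested.

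**Figure D5:**
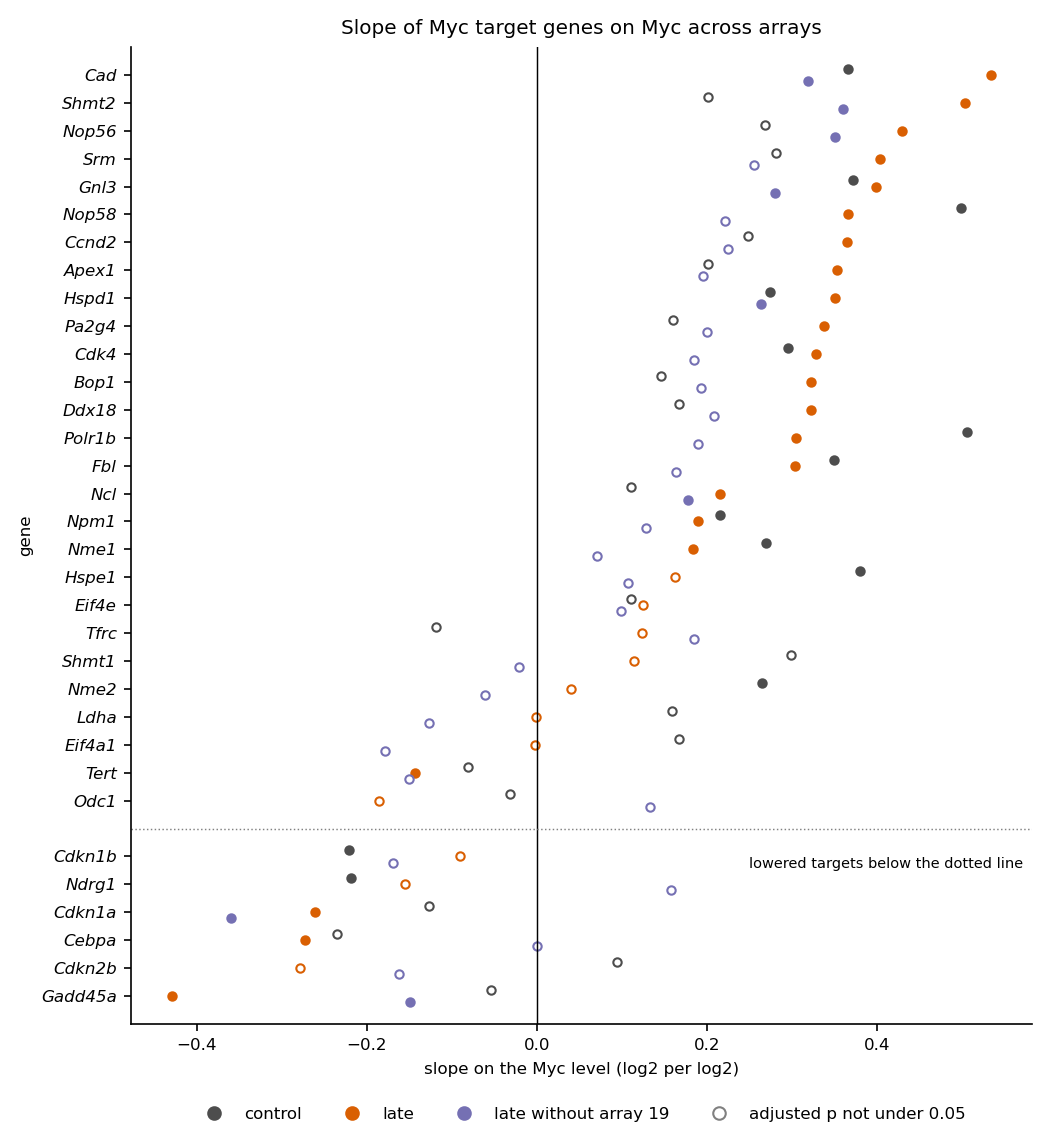
Slope on the Myc level (log2 per log2, horizontal axis) of the 27 raised targets and, below the dotted line, the 6 lowered targets of Myc, across control arrays (grey), late-numbered arrays (orange) and late-numbered arrays without array 19 of the validation tumors (purple); filled points have an adjusted p under 0.05. Cad, Gnl3 and Hspd1 are filled in all 3, and most slopes of raised targets lie to the right of 0.

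Genes whose pattern was most like that of Myc were sought over all 93 arrays after the mean of each set and cohort had been subtracted, among the 10603 genes brighter on average than the median probe set. The highest Spearman rho belonged to Usp11, a ubiquitin protease (0.673), Pcgf6, a Polycomb group subunit found in the Mga complex (0.667), Orc6, part of the origin recognition complex (0.645), and Ccar2 (0.644). In control, late-numbered and early-numbered arrays rho was 0.720, 0.603 and 0.786 for Usp11 and 0.752, 0.640 and 0.632 for Pcgf6. The lowest belonged to Crybb1 (−0.539), Vps37c (−0.448), Slc25a13 (−0.437) and Rab7 (−0.427). The network genes themselves lay well inside this range, from 0.289 for Mga to −0.157 for Mxd1, where the median gene stood at 0.0745.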

How the data were processed

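For 93 arrays of blood leukocytes the authors deposited log2 RMA values (RMA version not given in the sources used here). Standardization in the study used principal components of control probe sets; no source says if the table includes it. Values carry 3 significant digits. Arrays give no counts, so their number limits the precision. The labels name no animals, so p-values measure the spread between arrays, which may be technical. A platform annotation gave 34945 of the 45037 probe sets tested 1 symbol, 932 several and 9160 none; 64 control probe sets were not tested.

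Set means were compared by limma 3.58.1 under R 4.3.3 (lmFit, eBayes with intensity trend, two-sided, cohort as covariate, all 93 arrays, Benjamini-Hochberg over all 45037). Slopes on Myc were fitted within each set. Permutation tests (two-sided, 100000 resamples) used scipy 1.17.1 and numpy 2.4.6. The scripts were tested on simulated data. Members and lists were chosen with earlier results of these data known. Marker lists are read as mean log2 levels; Tfrc and Aurka stand in both a marker and a pathway list. All members were named, with up to 4 genes of each pathway list by the smallest p over the 3 sets, and the 4 highest and 4 lowest in likeness to Myc; targets named for their slopes were chosen after their values were seen. Alternatives were each cohort alone, renormalization, median centring, dim probe sets left out, array weights, no trend, the actin difference, 3 principal components of control probe sets or marker levels as covariates, a replicate block, the mean of a gene's probe sets and arrays left out. Leaving out the 2 late-numbered arrays with an actin difference below −1, and array 19 for the pathway lists, was chosen after seeing the data. Sequences are from RefSeq, GRCm38.p6.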

Additional observations from a re-analysis of the deposited data

Results flagged for a closer look

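Of 18 tests for a far array (9 genes in the early-numbered training and validation sets), 4 pointed to an array, where chance points to about 1 in 20. Max stood at 12.6 on array 4 of the training tumors, where the other 4 arrays of that set lay between 12.2 and 12.3. Mxd1 stood at 13.1 on array 5 of the training tumors (others 12.0 to 12.3), and on the same array Mnt stood at 10.2 (others 9.38 to 9.59). Mxi1 stood at 12.6 on array 6 of the validation tumors, where the other 7 arrays lay between 13 and 13.3.

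The slope of Mlx on Myc differed between late-numbered and early-numbered arrays by −0.30 ± 0.10 (SE, adjusted p = 0.0420 by limma on the interaction term), being −0.05 ± 0.0478 in the 52 late-numbered and 0.26 ± 0.130 in the 13 early-numbered arrays.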

How the results depend on the processing

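Early-numbered arrays are few, all of them have a low actin difference, and the slopes of Max and Mxi1 on Myc in late-numbered arrays rest on array 19 of the validation tumors. The cause of the changes below was not tested. Because dap is among the control probe sets, their principal components may carry part of the difference between late-numbered arrays and the others. Against the 5 genes called in late-numbered arrays versus control, 3 were called in the validation cohort alone, 3 with the principal components and 1 with the replicate block. The numbers in the labels share only a number (deviations of same-numbered arrays correlated between −0.468 and 0.237). With the replicate block Myc stood at 0.62 (adjusted p = 0.063 by limma). The sets are themselves defined by number, and numbers above 14 occur only among late-numbered arrays. The block therefore leaves these arrays without a direct comparison with controls. Against the 6 called in early-numbered arrays, 3 were called with the actin difference, 3 with the principal components and 3 with the marker levels as covariates; leaving out 1 early-numbered array at a time gave 5 to 6 here and 6 to 7 between late-numbered and early-numbered arrays. Against the 0 called for all tumor arrays, 2 were called with dim probe sets left out, 6 with array weights, 3 with the actin difference, 5 with the principal components, 2 with the replicate block, 5 with the mean of probe sets, 2 with the marker levels and 1 without the 2 arrays of low actin difference. With the mean of probe sets 1 partner followed Myc in control arrays against 0, and 0 followed it in late-numbered arrays without array 19 against 4, the slopes of Max and Mxi1 turning to 0.0474 and 0.0449.

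Differences that turned were mostly near 0. In late-numbered arrays versus control they were, with the principal components, −0.045 for Mycn and 0.31 for Mga (adjusted p = 0.0674); with the marker levels, 0.003 for Max, −0.10 for Mnt and −0.0102 for Mlx; with the mean of probe sets, 0.44 for Mxd1, 0.0418 for Mxi1 and 0.0285 for Mga; in the training cohort alone, 0.009 for Max and 0.0728 for Mxd1; and for Mxd1 0.0158 with array weights, 0.0388 with the replicate block and 0.0007 without array 19. In early-numbered arrays versus control, Mycn turned to 0.0818 with the actin difference, 0.0306 with array weights, 0.16 with arrays quantile-normalized again, 0.0707 with median centring, 0.23 with the mean of probe sets and 0.0289 in the validation cohort alone, and ran from −0.0584 to 0.0642 with 1 early-numbered array left out. There Mlx turned to 0.26 with the principal components, Mxd1 to −0.0443 in the training cohort, and with the mean of probe sets Mxi1 turned to −0.15 and Mga to −0.0718. Between late-numbered and early-numbered arrays Mlx turned to −0.0586 with the principal components, and Mxi1 to 0.19 and Mga to 0.10 with the mean of probe sets.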
